A study of Mus musculus with 8 samples.

Results

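The gene rows followed here are copies of ribosomal protein genes, the rows whose symbol begins with Rpl or Rps and carries "-ps", together with Gm11361. Of the 54532 rows of the deposited count table, 299 met this rule. No count fell on 127 of them in any library, and 172 had at least 1 count. Of these, 81 passed edgeR's expression filter, so that 91 had counts too low for the edgeR test. By the table's own annotation 283 of the 299 are processed pseudogenes, 7 are transcribed processed pseudogenes and 9, among them Gm11361 and Rps12-ps3, are listed as protein coding. Every autosome and the X chromosome holds at least 1 of them, 20 chromosomes in all.

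The libraries were made from total RNA of macrophages of the mouse peritoneal cavity, collected after thioglycollate broth, an irritant that draws monocytes and macrophages into the cavity. The genotype was a knockout (KO) of Men1, the gene of menin, a scaffold of histone methyltransferase complexes, or wild type (WT). Titles give each library a letter M or F, which the labels do not spell out, a genotype and an animal number. There were 3 M_KO libraries (M_KO_5944, M_KO_5645 and M_KO_5642), 3 M_WT libraries (M_WT_5643, M_WT_6258 and M_WT_6255), 1 F_KO library (F_KO_5639) and 1 F_WT library (F_WT_5638). All 8 animals had received the broth. The labels name no strain, age, Men1 allele or Cre driver, and they do not tie animals to litters, so p-values measure the spread between animals of different numbers and nothing more.

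Total counts ran from 18206427 to 22853583 per library, and 3 counts, the most that a count of 0 allows, correspond to 0.118 to 0.170 CPM (counts scaled to library size by the TMM method, the unit of every level below unless another is named). Men1 was counted at 6.51 to 8.33 CPM in M_KO and 11.8 CPM in F_KO, against 17.1 to 25.8 CPM in M_WT and 18.0 CPM in F_WT. The 8 macrophage markers summed to 17952 to 24571 CPM in the KO libraries and to 20818 to 32226 CPM in the WT libraries. The 5 B cell markers summed to 181 to 610 CPM in KO and 119 to 376 CPM in WT, while the lists for T cells, neutrophils, mast cells and basophils, dendritic cells and eosinophils each stayed at or below 27.8 CPM, with Mcpt8 at no count. The part of these other cells in the results below was not tested. In bulk RNA, fewer cells of a type and less RNA per cell cannot be told apart.

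Ribosomal proteins are made in large amounts in every cell, and each of the 2 ribosomal subunits carries its own set, named Rpl for the large and Rps for the small one. Their spliced mRNAs have been reverse transcribed and inserted into the genome many times in mammalian evolution. Such a processed copy has no introns, lies on another chromosome than its parent or far from it, and starts out with the parent's whole coding sequence. A read that falls where copy and parent are spelled alike cannot be assigned to one of them from its letters. How the authors' counting treated reads with several matches is not given in the sources used here, so the counts of each near-identical copy and of its parent are uncertain.

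Copies that gathered counts were on the whole closer to their parents in sequence than copies that did not. Transcripts of all 299 rows were found in GENCODE M21 (GRCm38), and 293 aligned to the coding sequence of the parent. Among the 81 copies past the filter the median identity was 99.32%, with 49 copies at 99% or more. Among the 88 aligned copies with fewer counts it was 96.41%, with 6 copies at 99% or more. Among the 124 aligned copies without a count it was 91.41%, with 2 at 99% or more. The longest stretch spelled exactly like the parent had a median of 250 bases in copies past the filter and 53.5 bases in copies without a count.

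Some of the stretches in which copies with a wide swing between animals differ from their parents are printed here, because at these coding bases a read of one can be told from a read of the other. They are from Rpl34-ps1, Rpl3-ps1, Gm11361 and Rps18-ps3, and no sequence of Rps2-ps10 is shown. Each is written in the direction of the coding sequence, with the differing base in capitals. Positions are counted from 1 at the A of the parent's start codon, and a substitution gives the parent's base, the position and the copy's base. Rpl34-ps1 differs from Rpl34 at 2 of 354 coding bases, T132C and C318G, and the copy's stretches lie at chr6:71124716-71124766 and chr6:71124902-71124952, both on the plus strand.
Rpl34-ps1, around base 132: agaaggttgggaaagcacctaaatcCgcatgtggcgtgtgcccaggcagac
Rpl34, around base 132: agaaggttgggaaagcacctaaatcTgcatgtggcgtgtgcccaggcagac
Rpl34-ps1, around base 318: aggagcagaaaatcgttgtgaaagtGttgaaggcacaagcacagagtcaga
Rpl34, around base 318: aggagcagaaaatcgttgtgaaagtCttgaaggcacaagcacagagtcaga

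Rpl3-ps1 differs from Rpl3 at 2 of 1209 aligned coding bases, C57A and T786C, and is spelled like its parent over 728 bases between them. Its stretches lie at chrX:13202603-13202653 and chrX:13203332-13203382, on the plus strand.
Rpl3-ps1, around base 57: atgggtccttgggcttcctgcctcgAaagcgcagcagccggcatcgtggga
Rpl3, around base 57: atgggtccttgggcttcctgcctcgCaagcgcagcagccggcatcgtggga
Rpl3-ps1, around base 786: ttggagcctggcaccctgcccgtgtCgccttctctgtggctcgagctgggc
Rpl3, around base 786: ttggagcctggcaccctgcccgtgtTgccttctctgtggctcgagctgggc

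Gm11361 is a synonym of Rps18-ps5 in RefSeq, and Rps18 is its closest coding sequence. It differs from Rps18 at 3 of 459 coding bases (T11A, A171C and A337C), and Rps18-ps3 at 3 of 456 (G181C, A337C and C430T). The copies share the difference at base 337, so a read over that base alone does not tell one copy from the other. The stretches lie at chr13:28257947-28257997 and chr13:28257781-28257831 on the plus strand for Gm11361 and at chr8:107262887-107262937 on the minus strand for Rps18-ps3.
Gm11361, around base 337: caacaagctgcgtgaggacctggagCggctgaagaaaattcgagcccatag
Rps18-ps3, around base 337: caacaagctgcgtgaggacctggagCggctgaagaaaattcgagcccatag
Rps18, around base 337: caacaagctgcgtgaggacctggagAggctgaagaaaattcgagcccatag
Gm11361, around base 171: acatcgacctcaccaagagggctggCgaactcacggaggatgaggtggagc
Rps18, around base 171: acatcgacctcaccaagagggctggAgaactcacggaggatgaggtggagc

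All copies together held 31731 to 53305 counts per library, 0.148% to 0.244% of the total, the lowest in F_KO_5639 and the highest in F_WT_5638. Few copies carried most of it. The highest library reached 1000 counts in 16 copies and 5 CPM in 42.

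Most copies with a mean of at least 10 CPM were fairly even between animals, and 5 of the 81 copies swung widely. Over the 8 libraries the highest level was a median of 2.18 times the lowest in the 81 copies (interquartile range 1.66 to 3.33). It was 1.29 times in the 61 parents and 1.91 times in all 13751 genes tested. Of the 25 copies at that mean, 16 varied by less than 2-fold. A range of 8-fold or more with at least 5 CPM in the highest library was found in 3.28% of all genes tested. Among tested rows it was found in 4.26% of the others with "-ps" in the symbol, 4.49% of ribosomal protein rows without it and 3.28% of the parents. Of the 81 copies, 5 had such a range (6.17%). These 5 were Rpl34-ps1 (24.8-fold), Rps2-ps10 (24.6-fold), Gm11361 (21.1-fold), Rps18-ps3 (9.73-fold) and Rpl3-ps1 (8.07-fold). Just outside lay Rpl3-ps2, with 11.4-fold but at most 4.95 CPM, and Rpl30-ps10, with 6.77-fold and up to 18.2 CPM. Without F_KO_5639 the number with a wide range was 3, since Rpl34-ps1 and Rpl3-ps1 owe their lowest level to that library.

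**Figure D1:**
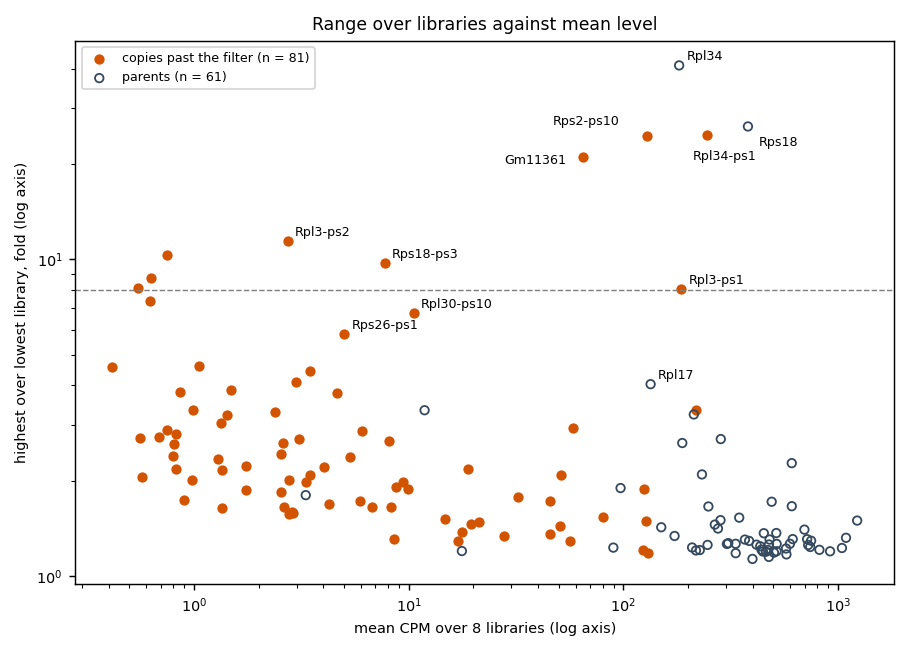
Each point is a gene: its mean level over the 8 libraries in CPM (log axis) against its highest over its lowest library (log axis), for the 81 copies past the filter and the 61 parents. The dashed line is the 8-fold bound. Rpl34-ps1, Rps2-ps10 and Gm11361 stand above 20-fold at mean levels of 65.0 CPM or more, as do 2 parents, Rpl34 and Rps18.

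Rpl34-ps1 (6:71124610-71124963, plus strand) is the copy with the highest mean level, 245 CPM, and its parent Rpl34 encodes a protein of the large subunit. The copy had 228, 211 and 185 CPM in M_KO and 19.8 CPM in F_KO, against 492, 227 and 380 CPM in M_WT and 218 CPM in F_WT. F_KO_5639 was the low library and M_WT_5643 and M_WT_6255 the high ones, while the M_KO and M_WT ranges overlapped. Rpl34 itself (chromosome 3) had 211, 201 and 203 CPM in M_KO and 393 CPM in F_KO, against 9.58, 225 and 10.9 CPM in M_WT and 201 CPM in F_WT. It was thus lowest in the libraries where the copy was highest, and highest in the library where the copy was lowest.

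As a share of the counts of copy and parent together, Rpl34-ps1 sat at 3 separate levels. In F_KO_5639 it held 4.81% (95% Wilson interval 4.38 to 5.28). In M_WT_5643 and M_WT_6255 it held 98.1% (97.8 to 98.3) and 97.2% (96.8 to 97.6). In the remaining 5 libraries it held between 47.6% and 52.0%. The intervals cover counting error only, and the gaps between levels are far wider than they are.

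Rpl3-ps1 (X:13202571-13203780, plus strand) copies the gene of a large-subunit protein next to the peptidyl transferase centre. The copy had 193, 171 and 47.3 CPM in M_KO and 42.6 CPM in F_KO, against 199, 309 and 344 CPM in M_WT and 187 CPM in F_WT. M_KO_5642 and F_KO_5639 were low, and all M_KO libraries lay below all M_WT libraries, M_KO_5944 by a small margin. Rpl3 (chromosome 15) had 640, 556 and 758 CPM in M_KO and 726 CPM in F_KO, against 649, 461 and 456 CPM in M_WT and 626 CPM in F_WT. The share of counts on the copy was again near a few levels, with 5.87% and 5.55% in M_KO_5642 and F_KO_5639, 40.2% and 43.0% in M_WT_6258 and M_WT_6255, and 23.0% to 23.5% in the other 4 libraries. The second copy of the gene, Rpl3-ps2, also on X, was low in the same libraries at 0.552 CPM in M_KO_5642 and 0.433 CPM in F_KO_5639, against 2.20 to 4.95 CPM elsewhere.

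Rps2-ps10 (18:61259008-61259972, minus strand) is a copy of Rps2, whose protein lies at the mRNA entry of the small subunit. It had 255, 216 and 213 CPM in M_KO and 19.9 CPM in F_KO, against 17.3, 11.3 and 16.7 CPM in M_WT and 278 CPM in F_WT. High and low libraries did not grade into each other, and F_KO lay with the M_WT libraries and F_WT with the M_KO libraries. Rps2 (chromosome 17) had 434, 373 and 400 CPM in M_KO and 814 CPM in F_KO, against 847, 698 and 835 CPM in M_WT and 471 CPM in F_WT. It was low in exactly the 4 libraries where the copy was high. The copy held 34.8% to 37.1% of the counts of the pair in those 4 libraries and 1.59% to 2.39% in the others.

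A second copy of the same parent followed the same libraries. Rps2-ps13 (X:52898588-52899469, plus strand) had 82.0, 75.3 and 65.8 CPM in M_KO and 34.6 CPM in F_KO, against 32.9, 46.1 and 32.9 CPM in M_WT and 96.4 CPM in F_WT. Its highest 4 libraries were the highest 4 of Rps2-ps10, with a narrower range of 2.93-fold. It differs from Rps2 at 7 of 882 coding bases and Rps2-ps10 at 5 of 882, and for both the longest stretch spelled like the parent is 302 bases.

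Gm11361 (13:28257528-28258134, plus strand) had 108, 140 and 85.6 CPM in M_KO and 78.1 CPM in F_KO, against 7.90, 7.50 and 6.64 CPM in M_WT and 86.2 CPM in F_WT. The 3 M_WT libraries were low and all others high, F_WT included. Rps18 (chromosome 17), which encodes a protein of the head of the small subunit, had 302, 26.4 and 287 CPM in M_KO and 298 CPM in F_KO, against 696, 561 and 554 CPM in M_WT and 320 CPM in F_WT. The parent was highest in the 3 M_WT libraries and far below the rest in M_KO_5645. In that library the copy held 84.1% of the counts of the pair, against 1.12% to 1.32% in M_WT and 20.8% to 26.3% in the other 4 libraries.

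Rps18-ps3 (8:107262793-107263248, minus strand) moved with Gm11361 at a lower level. It had 7.60, 17.3 and 7.22 CPM in M_KO and 10.1 CPM in F_KO, against 1.78, 3.19 and 2.53 CPM in M_WT and 12.1 CPM in F_WT. The lowest libraries were again the 3 M_WT ones and the highest was M_KO_5645, where it held 39.6% of the counts it shares with Rps18, against 0.25% to 3.64% in the others.

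**Figure D2:**
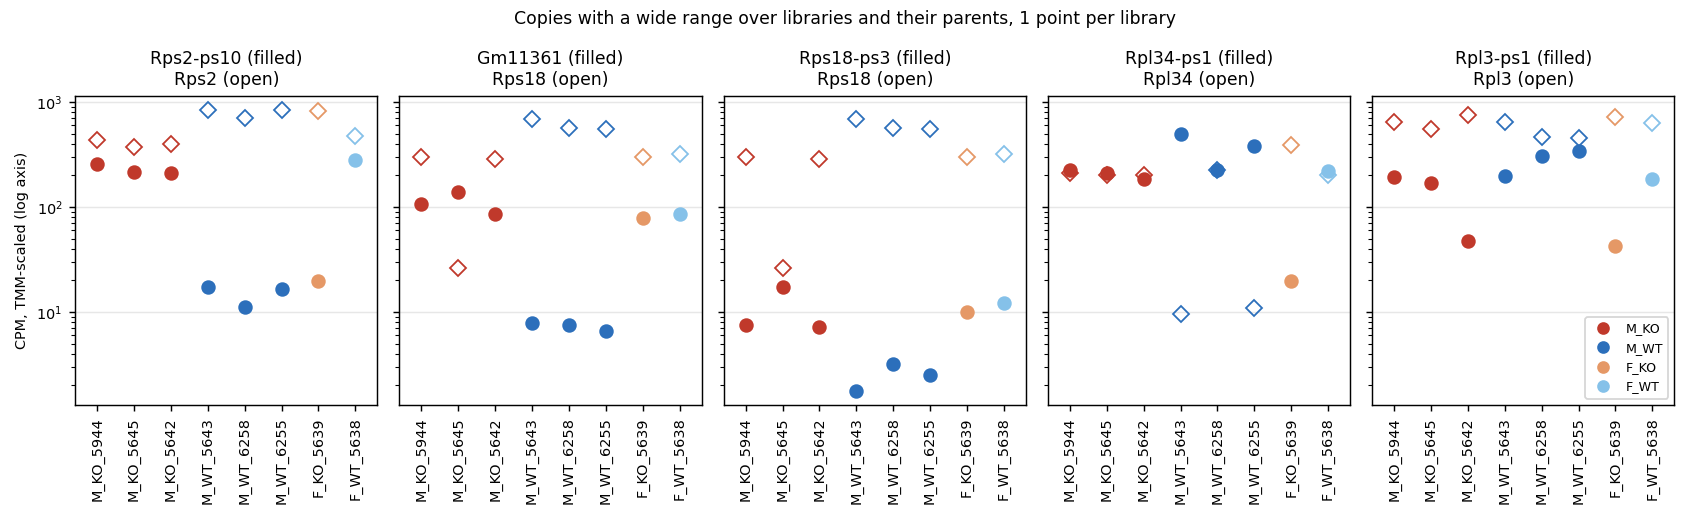
Levels in CPM (log axis) of the 5 copies with a wide range (filled circles) and of their parents (open diamonds), 1 point per library and colour by group. Rps2-ps10 is at 213 CPM or more in the 3 M_KO libraries and F_WT and at 19.9 CPM or less in the others, and Rpl34 is at 9.58 and 10.9 CPM in the M_WT libraries where Rpl34-ps1 is highest.

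Copies of Rpl17, a large-subunit protein at the mouth of the exit tunnel, ranged less, with Rpl17-ps10 low where the parent was high. Rpl17-ps10 (7:72648757-72649311) had 286, 284 and 85.8 CPM in M_KO and 110 CPM in F_KO, against 220, 238 and 259 CPM in M_WT and 260 CPM in F_WT. M_KO_5642 and F_KO_5639 were low, the libraries in which Rpl3-ps1 was low too. Rpl17 was highest in those 2, at 223 and 263 CPM, against 65.1 to 169 CPM in the others. Rpl17-ps3 (12:67510756-67511311) was steadier, at 101 to 150 CPM in M_KO and 129 CPM in F_KO, against 89.0 to 168 CPM in M_WT and 126 CPM in F_WT. It overlapped between the genotypes.

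Other copies at like levels varied by less than 2-fold over the libraries. Rpl14-ps1 (7:45324965-45325617), a copy of another large-subunit gene, had 142, 124 and 122 CPM in M_KO and 134 CPM in F_KO, against 144, 129 and 126 CPM in M_WT and 125 CPM in F_WT. This is a range of 1.18-fold, and its share of the counts with Rpl14 was 22.1% to 23.7% in every library. Rps10-ps2 (16:20822145-20822640) ranged from 110 to 132 CPM and held 96.4% to 98.0% of the counts in every library, since its parent Rps10, a small-subunit gene, was counted at only 2.67 to 4.81 CPM. The copy differs from Rps10 at 1 of the 400 coding bases that align. Rps12-ps3 (19:59322290-59322783) had 122, 160 and 107 CPM in M_KO and 146 CPM in F_KO, against 127, 121 and 112 CPM in M_WT and 129 CPM in F_WT, and lies within Pdzd8 on the opposite strand, a gene at a mean of 117 CPM. Its share of the counts with Rps12, a small-subunit gene, was not steady and ran from 21.8% in M_KO_5642 to 34.0% in M_KO_5645. Whether counting used strand is not given in the sources used here, and whether the copy meets an exon of Pdzd8 was not examined. It is therefore uncertain whether reads of Pdzd8 were counted on the copy. In all, 35 of the 81 copies overlap the span of another gene row, introns included, 13 of them on the same strand.

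Shares over all 81 copies were mostly small. In 53 copies the share never reached 5% of the counts with the parent. The median copy held 1.31%. A small share could still swing several-fold, as that of Rpl3-ps2 did between 0.060% and 1.06%. In 15 copies the share spanned 10 points or more, led by Rpl34-ps1 (93.3 points), Gm11361 (83.0 points) and Rpl17-ps10 (52.6 points). Shares are of counts and not per length. On the deposited FPKM values, which divide by a gene length that for parents spans all annotated exons, the highest share was 99.7% for Rpl34-ps1, 95.6% for Gm11361, 78.1% for Rps18-ps3, 66.4% for Rpl3-ps1 and 52.8% for Rps2-ps10.

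**Figure D3:**
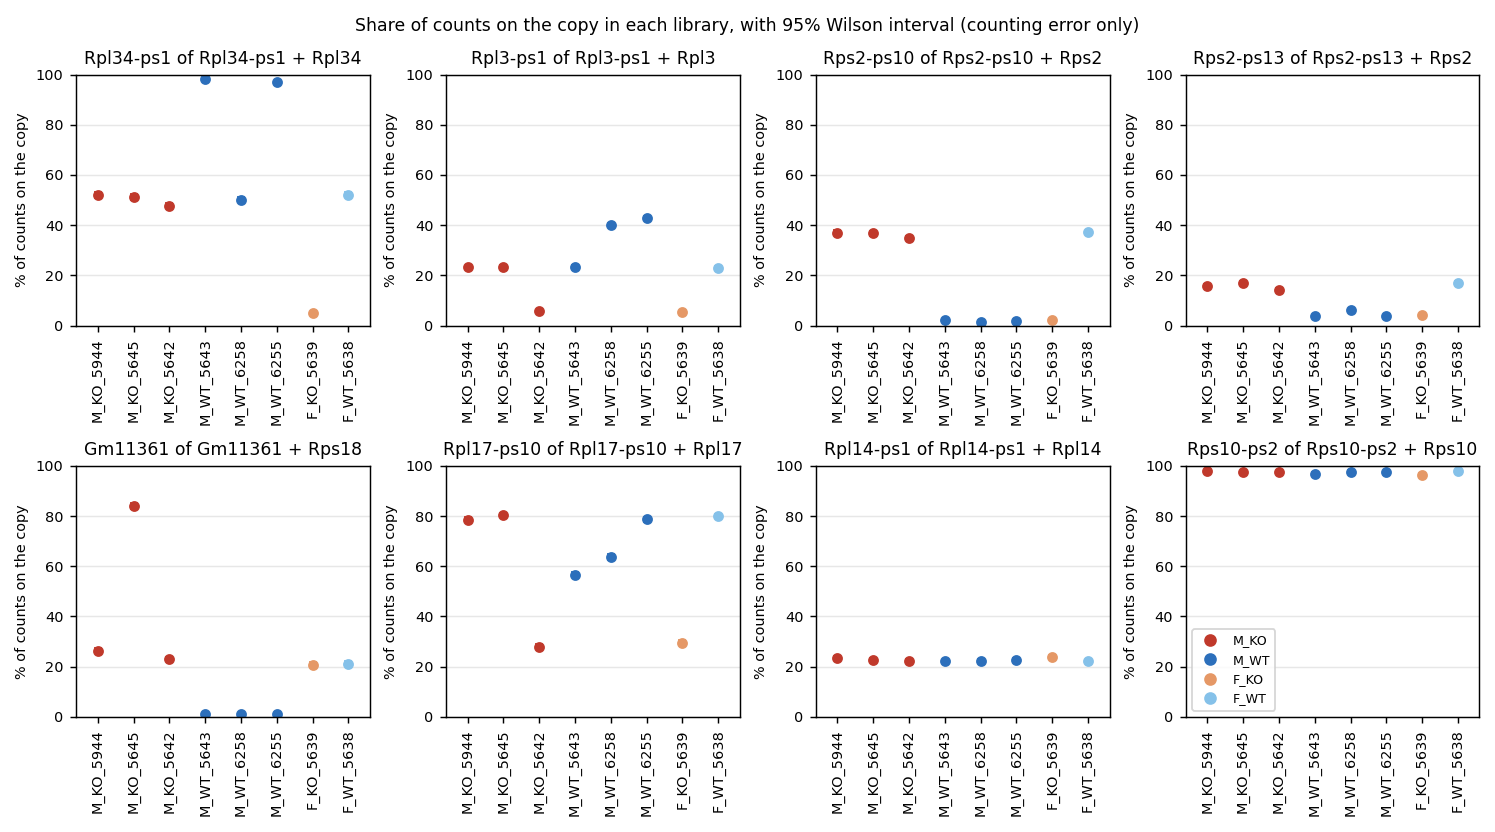
Share of the counts of copy and parent that fell on the copy, in percent, in each library, with 95% Wilson intervals that are mostly smaller than the points. Rpl34-ps1 sits near 5%, near 50% or above 97%, while Rpl14-ps1 stays between 22.1% and 23.7% and Rps10-ps2 between 96.4% and 98.0%.

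Added up by family, the swings of Rpl34, Rpl3, Rps2 and Rpl17 with their copies mostly disappeared. Rpl34 with its copies had 439, 412 and 388 CPM in M_KO and 413 CPM in F_KO, against 502, 452 and 391 CPM in M_WT and 420 CPM in F_WT. This sum ranged 1.29-fold, against 24.8-fold for the copies alone and 41.0-fold for the parent alone. The Rpl3 family ranged 1.17-fold as a sum, 8.10-fold in its copies and 1.66-fold in its parent, with coefficients of variation of 4.92%, 57.5% and 18.3%. The Rps2 family ranged 1.35-fold as a sum (copies 7.29-fold, parent 2.27-fold) and the Rpl17 family 1.36-fold (copies 2.29-fold, parent 4.04-fold). In these 4 families the sum was more even over the animals than the parent or the copies alone.

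The Rps18 family was the exception among those with a wide range. Its sum was 417, 184 and 380 CPM in M_KO and 386 CPM in F_KO, against 706, 571 and 564 CPM in M_WT and 418 CPM in F_WT, a range of 3.83-fold. M_KO_5645 was the lowest and the 3 M_WT libraries the highest. Adding every row that matches the coding sequence, named as a copy or not, left the range at 3.83-fold for Rps18 and at 1.28-fold for Rpl34, 1.17-fold for Rpl3, 1.36-fold for Rps2 and 1.36-fold for Rpl17. Over all 41 families with a copy past the filter, the sum ranged less than the parent in 29. In the 20 families whose copies held a median of 5% or more it did so in 13.

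**Figure D4:**
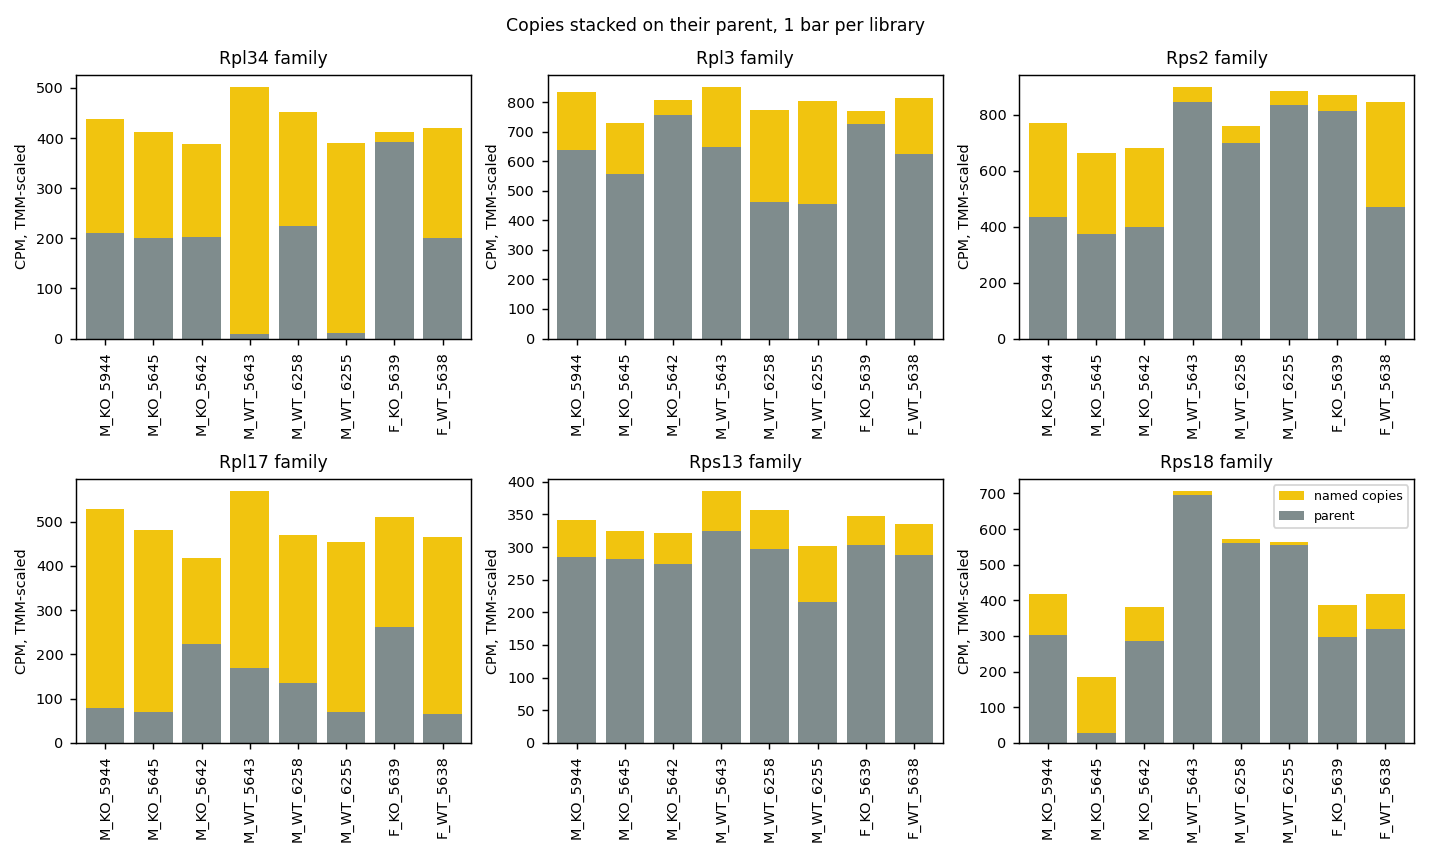
Levels in CPM of the named copies (yellow) stacked on the parent (grey) in each library for 6 families, each axis starting at 0. The total is nearly level in the Rpl34, Rpl3, Rps2, Rpl17 and Rps13 families although the division differs, and falls to 184 CPM in M_KO_5645 in the Rps18 family.

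By genotype, Rps2-ps10 and Gm11361 were higher in M_KO and no other copy passed the test. With edgeR's quasi-likelihood test and Benjamini-Hochberg adjustment over 13646 genes, 2 of the 81 copies were called higher in M_KO than in M_WT. These were the only 2 genes called higher, 0.0147% of all genes. Of the copies 0 were called lower, where 0.00733% of all genes were. Before adjustment 7 of the 81 copies had p under 0.05, 8.64% against 9.56% of all genes. Rps2-ps10 averaged 228 ± 23.2 CPM in M_KO and 15.1 ± 3.32 CPM in M_WT (SD, n = 3 each), a log2 fold change of 3.91 (SE 0.21, edgeR adjusted p = 0.00373). Gm11361 averaged 111 ± 27.5 CPM in M_KO and 7.35 ± 0.645 CPM in M_WT (SD, n = 3 each), a log2 fold change of 3.91 (SE 0.22, edgeR adjusted p = 0.00373). Both calls were lost without M_WT_6255, with an edgeR adjusted p of 0.0768 for each, while the log2 fold changes stayed at 3.99 for Rps2-ps10 and 3.84 for Gm11361. In that fit 0 of 14087 genes were called. Over all copies the median log2 fold change was -0.07, with 30 positive and 51 negative, beside -0.08 for the 61 parents and 0.01 for all genes.

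The F pair did not repeat the direction. Rps2-ps10 had 0.0716 times the level in F_KO that it had in F_WT (exact 95% interval 0.0647 to 0.0791, counting error only), and Gm11361 had 0.906 times (0.848 to 0.967). The interaction of genotype with letter, the KO minus WT difference in F less that in M, rests on 1 library per F genotype. Its error comes from the spread among the 6 M libraries, with 4 residual degrees of freedom, which edgeR draws towards a trend over all genes. The lone F libraries are assumed to vary like the M libraries. On that assumption it was past the threshold for Rps2-ps10 (log2 -7.72, SE 0.45, edgeR adjusted p = 0.0104). Rps2-ps10 was the only 1 of the 81 copies called lower and the only gene called lower, 0.00727% of all genes. Of the copies 0 were called higher, where 0.0145% of all genes were. The 2 genes called higher were both ribosomal protein rows without "-ps", of 89 tested. For Gm11361 the interaction did not pass (log2 -4.06, SE 0.41, edgeR adjusted p = 0.0993). Before adjustment 5 of the 81 copies had an interaction p under 0.05, 6.17% against 4.36% of all genes. DESeq2 called the interaction of 4 of the 83 copies it tested lower (Rps2-ps10, Gm11361, Rpl34-ps1 and Rps2-ps13) and of 0 higher. Of all genes it called 0.0851% lower and 0.0568% higher, with 3 ribosomal protein rows without "-ps" among those called higher. With genotype and letter as terms over all 8 libraries, edgeR called 0 of the 81 copies higher or lower. The shares of all genes were 0% and 0.00727%. Before adjustment 8 copies had p under 0.05, 9.88% against 9.48% of all genes. In this fit, the interaction fit and the F pair, the 81 copies hold Rpl31-ps13 in place of Rpl31-ps11. Rpl31-ps13 is 1 of the 8. DESeq2 called 1 copy higher, Gm11361, and 0 lower, where 0.501% and 0.479% of all genes were. In that edgeR model Gm11361 had a log2 fold change of 3.07 (SE 0.75, adjusted p = 0.484) and Rps2-ps10 of 2.91 (SE 1.39, adjusted p = 0.541).

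DESeq2, run as an alternative, called 4 of the 103 copies it tested higher in M_KO and 0 lower. Of all genes it called 0.611% higher and 0.598% lower. Beside Rps2-ps10 and Gm11361 the copies called were Rps18-ps3 and Rps2-ps13, further copies of the same parents. Rps18-ps3 averaged 10.7 ± 5.72 CPM in M_KO and 2.50 ± 0.708 CPM in M_WT (SD, n = 3 each), with a DESeq2 adjusted p of 8.1e-04 and an edgeR adjusted p of 0.393. Rps2-ps13 averaged 74.3 ± 8.13 CPM in M_KO and 37.3 ± 7.62 CPM in M_WT (SD, n = 3 each), with a DESeq2 adjusted p of 0.00354 and an edgeR adjusted p of 0.349. The authors' deposited table, which holds 156 of the copies, compares the same M groups and is no independent support. The share of all genes called in it was not taken, so the number of copies called there cannot be judged against it. It calls the same 4 copies, with adjusted p-values of 0.00369 for Rps18-ps3 and 0.0393 for Rps2-ps13. Their parents, Rps2 and Rps18, had negative log2 fold changes. Rps2 averaged 402 ± 30.5 CPM in M_KO and 793 ± 82.9 CPM in M_WT (SD, n = 3 each), which is -0.98 on the log2 scale (SE 0.14, DESeq2 adjusted p = 5.45e-06, edgeR adjusted p = 0.302). Rps18 differed by -1.56 on that scale (SE 0.77, edgeR adjusted p = 0.562). DESeq2 called 1 other parent, Rpl30, higher in M_KO (log2 fold change 0.95, SE 0.26, DESeq2 adjusted p = 0.031, edgeR adjusted p = 0.434).

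In 4 copies every M_KO library lay above every M_WT library, where 9.0% of all genes did so, and in 6 every M_KO library lay below, where 7.15% did. The 4 were the copies that DESeq2 called. The 6 were Rpl3-ps1 (log2 fold change -1.06, SE 0.50), Rpl3-ps2 (-1.02, SE 0.59), Rps4x-ps (-0.70, SE 0.37), Rps13-ps1 (-0.51, SE 0.20), Rpl21-ps8 (-0.34, SE 0.21) and Rps19-ps6 (-0.19, SE 0.13), all with an edgeR adjusted p of 0.509 or more. With total counts in place of TMM scaling the split was 6 above and 4 below. Of 81 copies these 10 make 12.3%, where 16.2% of all genes did not overlap, so a lack of overlap was not more common among the copies.

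Several of these copies differ little in size. Rps13-ps1 (8:87047689-87048226) had 52.1, 39.5 and 43.0 CPM in M_KO and 40.4 CPM in F_KO, against 55.1, 54.2 and 82.1 CPM in M_WT and 43.6 CPM in F_WT. M_WT_6255 stood apart, and there the copy held 27.5% of the counts with Rps13, a small-subunit gene, against 11.8% to 15.5% elsewhere. Rps19-ps6 had 16.2 to 18.7 CPM in M_KO and 14.5 CPM in F_KO, against 19.0 to 19.9 CPM in M_WT and 17.5 CPM in F_WT. It lies within Tecpr2 on the same strand, a gene at a mean of 28.9 CPM.

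Between the 2 F libraries, which have no replicate, the log2 difference with a prior count of 2 reached 2-fold in 10 of the 81 copies. F_KO was higher in 2, where 5.08% of all genes were, and lower in 8, where 5.37% were. Among the parents 1 of 61 was higher, Rpl17, at 4.04 times its F_WT level (exact 95% interval 3.81 to 4.28). The low copies in F_KO include Rpl34-ps1 at 0.0909 times the F_WT level (0.0820 to 0.101), Rpl3-ps1 at 0.228 times (0.212 to 0.245), Rps2-ps13 at 0.359 times (0.329 to 0.390) and Rpl17-ps10 at 0.421 times (0.401 to 0.441). Rpl30-ps10, a copy on X of another large-subunit gene, ran the other way at 3.79 times (2.87 to 5.06), with 10.8 CPM in F_KO and 2.84 CPM in F_WT. Its M libraries had 9.47, 14.8 and 2.68 CPM in M_KO, against 18.2, 15.1 and 10.6 CPM in M_WT, so that M_KO_5642 and F_WT_5638 were low. Its parent Rpl30 had 181, 282 and 316 CPM in M_KO and 151 CPM in F_KO, against 152, 120 and 126 CPM in M_WT and 178 CPM in F_WT. All M_KO libraries lay above all M_WT libraries in the parent, while those of the copy overlapped.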

How the data were processed

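Whole read counts per gene, FPKM values and a comparison of M_KO with M_WT (log2 fold changes and p-values) were deposited by the authors. Tools listed in the submitters' processing notes are DESeq2 1.16.1, featureCounts 1.5.0-p3 and HISAT2 2.0.5, and builds are mm10 and GRCm38. The sources used here do not give the annotation release, the strand setting or how reads with several matches were treated. The kit was NEBNext Ultra RNA, per the labels' protocols.

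Counts were tested with edgeR 4.0.16 (R 4.3.3): quasi-likelihood test, TMM scaling, default expression filter on genotype, Benjamini-Hochberg adjustment over all genes tested, threshold 0.05. The SE beside an edgeR log2 fold change is the size of that change divided by the square root of the test's F statistic. DESeq2 1.42.0 and limma 3.58.1 served as alternatives. The edgeR steps were tested on simulated data. Copies were aligned to GENCODE M21 coding sequences with BLAST+ 2.17.0, and substitutions were read from these alignments. A parent is the row named by the part of the symbol before "-ps", and for Gm11361 it is Rps18 through the RefSeq synonym.

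Copies described singly were Gm11361, those called in an edgeR fit, those with a wide range, the 8 with the highest mean and those at a mean log2 CPM of at least 1 whose M groups do not overlap. Rpl30-ps10, Rpl3-ps2 as a neighbour of a bound, and Rps4x-ps were named after their values were seen. The members, lists and tests were chosen with earlier results of these data known, in which Gm11361 and Rps2-ps10 already stood out, so their calls are no independent support. No library was left out, and 0 deposited value columns had no sample.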

Additional observations from a re-analysis of the deposited data

Results flagged for a closer look

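In the 4 copies with every M_KO library above every M_WT library, the KO minus WT difference had the opposite sign in the F pair. They are copies of Rps2 and Rps18 only, and not the only copies whose sign changed, as Rpl30-ps10 shows. The share over all genes was not taken, so whether the pattern is particular to these copies is not known. In Gm11361 and Rps18-ps3 both F libraries lay above all M_WT libraries, and the F difference was small. For Rps2-ps10 the interaction of genotype with letter was tested and was -7.72 on the log2 scale (SE 0.45, edgeR adjusted p = 0.0104), with an error taken from the spread among the M libraries, which the lone F libraries are assumed to share. For the other 3, all M_KO libraries lay above all M_WT libraries while F_KO lay below F_WT, by a log2 difference of -0.14 for Gm11361, -0.26 for Rps18-ps3 and -1.48 for Rps2-ps13. Their edgeR interaction terms did not pass the threshold, with adjusted p-values of 0.0993 for Gm11361, 0.965 for Rps18-ps3 and 0.495 for Rps2-ps13. The F difference alone has no test, since there is 1 library per genotype, and every interaction term rests on it.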

How the results depend on the processing

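No paired analysis was possible because the animal numbers differ between the groups. Limits are that the counts of near-identical copies depend on how reads with several matches were assigned and that F has 1 library per genotype. A further limit is that 91 copies with counts were too low for the edgeR test in M. In the M comparison the 2 copies called by edgeR became 4 with DESeq2. Over all genes edgeR called 2 higher and 1 lower of 13646, and DESeq2 95 higher and 93 lower of 15545. When each library was left out, the copies called ran from 0 to 2, with 0 without M_WT_6255. They were also 2 under each of the other scalings, filters and limma fits run and with a term for animal numbers beginning with 56. Over all 8 libraries the 0 called became 1 with DESeq2 and ran from 0 to 2 on leaving out a library, with 2 without F_KO_5639 or F_WT_5638. The 1 interaction called became 4 with DESeq2 and 2 without a filter, and ran from 0 to 2 on leaving out a library, with 0 without M_KO_5645 or M_WT_6255 and 2 without M_KO_5642. DESeq2 called 0.501% of all genes higher and 0.479% lower over all 8 libraries, and 0.0568% and 0.0851% in the interaction. The edgeR shares were 0% and 0.00727% over all 8 libraries, and 0.0145% and 0.00727% in the interaction. A wide range was met by 5 copies at 8-fold, where 3.28% of all genes met it. At 4-fold it was met by 8 copies, at 16-fold by 3, and by 3 to 5 when each library was left out. Shares of all genes for the remaining settings are not given here, apart from the fit without M_WT_6255. On FPKM the highest shares were 99.7% (Rpl34-ps1), 66.4% (Rpl3-ps1), 52.8% (Rps2-ps10), 95.6% (Gm11361) and 78.1% (Rps18-ps3), since the deposited lengths of the parents are longer. Small fold changes without a call turned sign. The log2 fold change of Rpl17-ps3, -0.02, became 0.0018 with upper-quartile scaling, 0.072 with total counts, and 0.0040 and 0.0041 with limma on log2(FPKM + 1) and log2(FPKM + 0.1), and that of Rpl14-ps1, -0.04, became 0.047 with total counts. Leaving out each M library gave -0.21 to 0.27 for Rpl17-ps3, positive without M_KO_5645, M_KO_5642 or M_WT_5643, and -0.37 to 0.24 for Rpl17-ps10, positive without M_KO_5642. It gave -0.11 to 0.022 for Rpl14-ps1, positive without M_WT_5643, and -0.076 to 0.22 for Rps12-ps3, negative without M_KO_5645. The log2 fold changes of the 2 called copies kept their sign throughout. The cause of these changes was not tested.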

Other observations

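Some copies at lower levels were also uneven between animals, in a gradient for Rps26-ps1 and in a single animal for the others below. Rps26-ps1 (chromosome 8) had 6.58, 2.07 and 12.0 CPM in M_KO and 4.28 CPM in F_KO, against 2.67, 3.25 and 7.05 CPM in M_WT and 2.24 CPM in F_WT, while its parent Rps26 stayed between 521 and 636 CPM. The copy lies within Wwp2 on the opposite strand, at a mean of 54.3 CPM. Rpl10-ps1 (chromosome 2), spelled like Rpl10 over all 645 coding bases, had 8.25 CPM in M_WT_6258 and 1.85 to 3.45 CPM in the other 7 libraries. Rps13-ps2 (chromosome 7) was low in M_WT_6255 alone, at 0.963 CPM, against 2.79 to 3.94 CPM elsewhere, and this is the library in which Rps13-ps1 was highest. These copies were chosen after their values were seen.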
